A study of Mus musculus with 6 samples.

Results

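Fatty acids taken up by a cell are trapped and made ready for use when they are joined to coenzyme A. The genes described here act in that uptake or in that step. They are the 6 members of the Slc27 family of fatty acid transport proteins (*Slc27a1* to *Slc27a6*) and a set of acyl-CoA synthetases. The synthetases are the long-chain *Acsl1*, *Acsl3* and *Acsl4* and the medium-chain *Acsm3*. These 10 genes were taken by symbol from the 24393 features counted in each library, and 8 of them were among the 13846 genes with enough counts to be tested. *Slc27a2* and *Acsm3* were chosen by their measured change between the same groups of libraries that are compared below, so their values are given as a description with no p-value, and the other 8 genes were added as relatives of these.

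The RNA came from KH2 cells, a mouse embryonic stem cell line kept non-differentiated, and built to accept a transgene at a defined locus, in 3 libraries with the genotype CONTROL and 3 with the genotype HOXA13. The labels give all 6 libraries the strain C57/BL/6, the cell type embryonic stem cell, medium with LIF, a feeder layer of irradiated 3T3-Swiss albino fibroblasts and no treatment. According to the methods, HOXA13 was the human gene with its intron, copied from genomic DNA, FLAG-tagged and placed under doxycycline control, and the comparison asks what this posterior homeobox factor does to the transcriptome of the cells. Whether doxycycline was given to these 6 libraries is not settled by the labels or the methods, and if it was given to 1 group only, its effect and that of HOXA13 cannot be told apart. The methods call the replicates biological, without saying whether they were separate clones or separate cultures of 1 clone, and the p-values measure the spread between these libraries.

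Total counts were 14608681 to 21766589 in control and 13494135 to 20374341 in HOXA13 libraries. The feature for the human transgene, ENSG00000106031, counted 6, 0 and 0 reads in control 1, 2 and 3 and stood at 222.0 ± 6.87 CPM (reads scaled to a common library total, SD, n = 3) in HOXA13. The ES cell markers *Pou5f1* (706.4 ± 74.9 against 690.1 ± 4.93 CPM) and *Nanog* (318.5 ± 26.5 against 472.4 ± 0.831 CPM) were detected in both groups. Of 10 ES cell markers 5 were called higher, *Nanog* among them (adjusted p = 0.000951 by edgeR), and 1 lower (14.4% and 13.3% of all genes), and their sum was 2752.6 to 3758.1 CPM in control and 3793.6 to 3906.2 CPM in HOXA13. The part of this shift in the members' values was not tested. The control libraries were uneven in mesendoderm markers: the summed CPM of 10 such genes was 439.0, 40.6 and 189.8 in control 1, 2 and 3 and 20.6 to 23.8 in HOXA13, and *T* alone was 92.2 ± 85.4 CPM in control and 2.04 ± 0.588 CPM in HOXA13. Feeder fibroblast markers summed to 8160.9 to 11585.7 CPM in control and 9909.8 to 12141.0 CPM in HOXA13, and of the 20 genes none was called in either direction by edgeR's quasi-likelihood test at an adjusted p under 0.05. Genes of feeder fibroblasts were therefore detected in every library, and the part of feeder RNA in the members' levels was not tested.

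As background, fatty acid transport proteins promote the uptake of fatty acids and most of them are also acyl-CoA synthetases for very long chains. Long-chain acyl-CoA synthetases sit on the endoplasmic reticulum, mitochondria, peroxisomes or lipid droplets and direct fatty acids to lipid synthesis or to oxidation. Enzymes of the medium-chain group reside in mitochondria and are best known from liver and kidney. The proteins of all 3 groups belong to the superfamily of adenylate-forming enzymes, which join the fatty acid to AMP before passing it to coenzyme A.

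To show what the members have in common in sequence, the codons of the AMP-binding loop (serine, glycine, threonine or serine, threonine, glycine, any residue, proline, lysine) are printed in capitals with the codon on each side in lower case. They were found by searching for that pattern in the translated longest coding transcript of each gene in GENCODE vM1 (mm9). The loop is coding, so it lies in exons, and each of the 9 genes shown has 1 match, while *Slc27a6* was not analysed here.
Slc27a1: actTCTGGGACCACCGGGCTTCCTAAGgct
Slc27a2: actTCGGGAACCACAGGTCTTCCAAAAgcg
Slc27a3: accTCTGGCACTACTGGCCTGCCCAAGgct
Slc27a4: acaTCGGGCACCACGGGGCTACCCAAAgct
Slc27a5: actTCAGGGACCACTGGACTCCCAAAGcca
Acsm3: accAGTGGGACAACTGGGCCTCCTAAGatg
Acsl1: acaAGTGGAACTACAGGCAACCCCAAAgga
Acsl3: acaAGTGGGTCCACAGGAATTCCAAAGgga
Acsl4: accAGTGGTTCTACGGGCCGCCCCAAGgga

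The match began at codon 250 of 646 in *Slc27a1*, 226 of 620 in *Slc27a2* and 230 of 622 in *Acsm3*. Of the 24 bases of the loop, 18, 16, 19 and 18 in *Slc27a1*, *Slc27a3*, *Slc27a4* and *Slc27a5* were the same as in *Slc27a2*, against 14 in *Acsm3* and 15, 16 and 12 in *Acsl1*, *Acsl3* and *Acsl4*. Since the pattern chose the codons, what can be compared is only how far their bases differ.

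The transporter *Slc27a2* was far lower in HOXA13 libraries than in control libraries. *Slc27a2* (FATP2, also called the very long-chain acyl-CoA synthetase of peroxisomes and endoplasmic reticulum, mm9 chr2:126378143-126413979, plus strand, 12 merged exons) counted 993, 566 and 833 reads in control 1, 2 and 3 and 98, 94 and 61 reads in HOXA13 1, 2 and 3. This corresponds to 44.3, 38.5 and 42.1 CPM in control and 4.98, 5.17 and 4.61 CPM in HOXA13. All HOXA13 libraries lay far below all control libraries, and the libraries of each group lay close together (coefficient of variation 7.06% in control and 5.8% in HOXA13). The mean was 41.6 ± 2.94 CPM in control and 4.92 ± 0.285 CPM in HOXA13 (SD, n = 3), 8.43-fold lower, with a fitted log2 fold change of -3.08 ± 0.10 (SE). By size of the fall it stood at rank 68 of the 13846 genes tested. Since the gene was chosen by this change, no test is attached to it. It shares 419 exon bases with a long noncoding RNA on the opposite strand, *Gm16762*, for which no counts were used here.

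**Figure D1:**
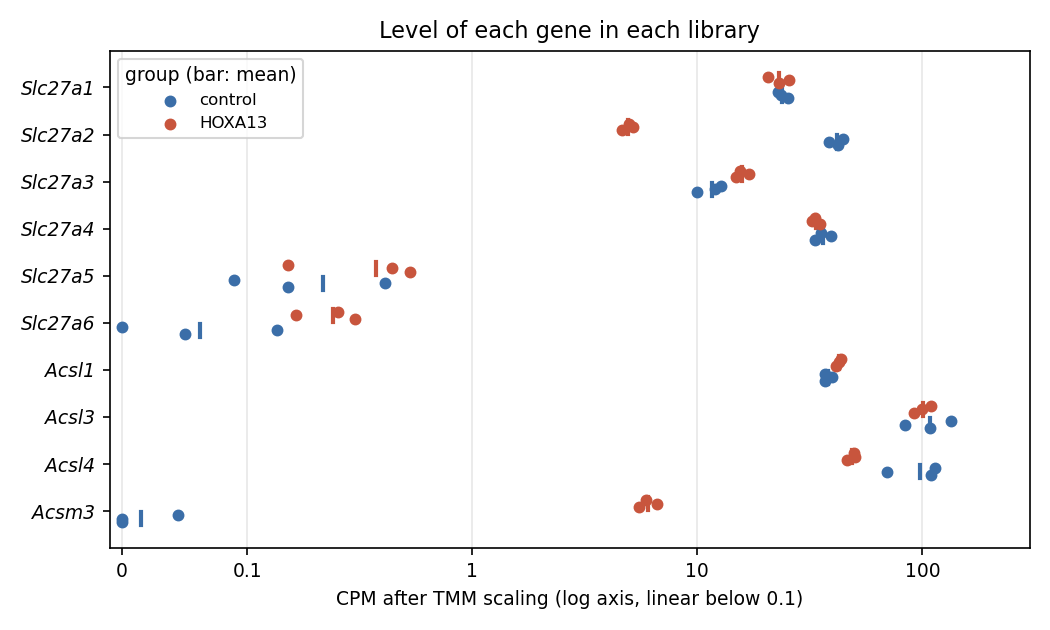
Level of each of the 10 genes in each library. The x axis is CPM after TMM scaling on a log axis that is linear below 0.1, each point is a library, short bars are group means, blue is control and red is HOXA13. *Slc27a2* (38.5 to 44.3 against 4.61 to 5.17 CPM), *Acsl4* (69.5 to 113.7 against 46.3 to 50.3 CPM) and *Acsm3* stand apart between the groups, whereas *Slc27a1*, *Slc27a4*, *Slc27a5* and *Acsl3* overlap.

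Markers of endoderm and liver, where *Slc27a2* is known to be expressed, were examined beside it. The 16 extraembryonic endoderm and liver-type markers summed to 495.0 to 529.9 CPM in control and 285.0 to 317.3 CPM in HOXA13, and of the 10 tested 2 were higher, 4 lower and 4 not called (14.4% of all genes were higher and 13.3% lower). Within that list *Ttr* was at 0 counts in all libraries and *Apoa1*, *Alb* and *Hnf4a* had at most 3 counts in any library. The other genes, *Afp* and *Apob* among them, had more than 3 counts in some library. The part of these cells in the difference was not tested, and in bulk RNA fewer cells of a type and less RNA per cell cannot be told apart. *Slc27a2* was 38.5 CPM in control 2, where mesendoderm markers were lowest among the control libraries, and 44.3 CPM in control 1, where they were highest. Control 2 also had the fewest total counts of the control libraries, and control 1 the most.

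Of the 3 other transporters with enough counts, 1 rose and none fell (over all genes 14.4% were called higher and 13.3% lower). *Slc27a3* (FATP3, a very long-chain acyl-CoA synthetase, chr3:90189161-90193860) was 12.8, 12.0 and 9.95 CPM in control and 15.4, 16.9 and 14.9 CPM in HOXA13, and the groups did not overlap. Its log2 fold change was 0.44 ± 0.13 (edgeR's quasi-likelihood test, adjusted p = 0.0335), and the call was lost with library-size scaling (adjusted p = 0.0583) and without control replicate 3 (adjusted p = 0.096) or HOXA13 replicate 1, 2 or 3 (adjusted p = 0.0946, 0.137 and 0.0754). *Slc27a1* (FATP1, the transporter of muscle and fat that responds to insulin, chr8:74092826-74110607) was 22.9, 23.5 and 25.3 CPM in control and 20.6, 25.6 and 23.0 CPM in HOXA13, a log2 fold change of -0.05 ± 0.10 (adjusted p = 0.746 by edgeR). *Slc27a4* (FATP4, the broadly expressed transporter of gut and skin, chr2:29658154-29673042) was 35.6, 39.4 and 33.5 CPM in control and 33.5, 32.4 and 35.1 CPM in HOXA13, a log2 fold change of -0.10 ± 0.09 (adjusted p = 0.421 by edgeR). For both genes the libraries of the groups overlapped.

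The remaining transporters were barely detected. *Slc27a5* (FATP5, the bile acyl-CoA synthetase of liver, chr7:13573695-13583541) collected 2, 6 and 3 reads in control against 3, 8 and 7 in HOXA13, and *Slc27a6* (FATP6, a transporter known from heart, chr18:58715911-58772427) collected 0, 2 and 1 reads against 5, 3 and 4. Neither had enough counts to be tested. The ratio of summed counts per total, HOXA13 over control, was 1.82 (95% exact interval 0.816 to 4.27) for *Slc27a5* and 4.46 (1.2 to 24.6) for *Slc27a6*, and these intervals cover counting error only. A count of 3, taken as the floor, was worth 0.134 to 0.227 CPM in these libraries, so most of these values are at or near the floor.

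Levels of different genes were compared per length, as RPKM, the scaled reads divided by the length of merged exons. In control libraries *Slc27a2* was the most abundant transporter at 11.1 ± 0.783 RPKM, above *Slc27a1* (8.56 ± 0.447) and *Slc27a4* (8.2 ± 0.68), whose libraries overlapped, and *Slc27a3* (4.51 ± 0.576). In HOXA13 libraries *Slc27a1* (8.25 ± 0.891) and *Slc27a4* (7.63 ± 0.303) came first, overlapping each other, followed by *Slc27a3* (6.12 ± 0.407) and then *Slc27a2* (1.31 ± 0.0761). The share of *Slc27a2* in the summed RPKM of the 6 transporters went from 35.7, 31.6 and 35.2% in the control libraries to 5.91, 5.58 and 5.22% in the HOXA13 libraries. The sum itself was 32.5 ± 0.638 RPKM in control and 23.6 ± 1.13 RPKM in HOXA13, so it was not made up by the other members. With library-size scaling the order was the same for these 4 genes.

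**Figure D2:**
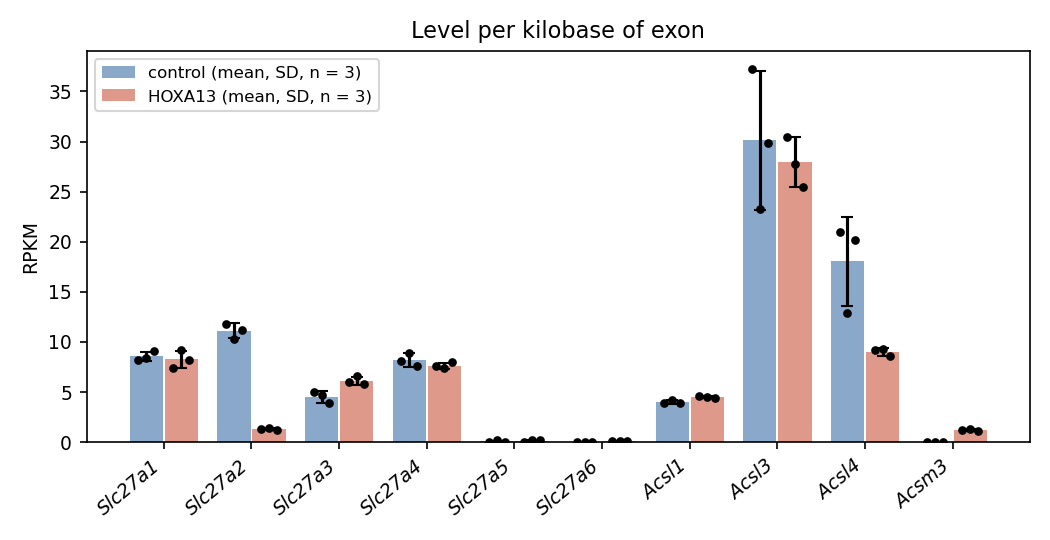
Level of the 10 genes per kilobase of merged exon. Bars are means with SD over 3 libraries, dots are single libraries, the y axis is RPKM from 0, blue is control and red is HOXA13. *Acsl3* is the highest gene in both groups (30.1 and 27.9 RPKM), and *Slc27a2* goes from 11.1 to 1.31 RPKM.

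*Acsm3* went from almost no counts to a low but clear level. This mitochondrial enzyme, which activates short- and medium-chain fatty acids (chr7:126904437-126931027, plus strand), counted 1, 0 and 0 reads in control 1, 2 and 3 and 117, 120 and 73 reads in HOXA13 1, 2 and 3. In CPM the HOXA13 libraries were at 5.94, 6.61 and 5.52, a mean of 6.02 ± 0.548 (SD, n = 3), while every control library was below the floor of 3 counts. The ratio of summed counts per total was 345.0 (95% exact interval 61.5 to 13700, counting error only). Since the gene was chosen by this rise, the interval is a description and no test of it. The fitted log2 fold change was 7.95 ± 0.45, a value that depends on the small prior count added to each group. *Acsm3* stood at rank 4 of 13846 by rise, and it passed the count filter only through the HOXA13 libraries. Per length it reached 1.22 ± 0.111 RPKM, which overlapped the remaining *Slc27a2* level in the same libraries (1.23 to 1.38 RPKM against 1.12 to 1.34 RPKM).

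The other medium-chain genes in the same cluster on chromosome 7, *Acsm1*, *Acsm2*, *Acsm4* and *Acsm5*, had 0 counts in all 6 libraries. *Acsm3* shares 1962 of its 4936 exon bases (39.7%) with *Eri2*, an exonuclease gene on the opposite strand. The library kit marks the strand, but the strand setting used for counting was not given in the sources used here, so reads of the overlap cannot be assigned with certainty. *Eri2* was 30.4, 34.9 and 32.5 CPM in control and 39.6, 33.8 and 34.3 CPM in HOXA13 (log2 fold change 0.14 ± 0.10, adjusted p = 0.303 by edgeR). For every 100 *Eri2* counts there were 0.147, 0 and 0 *Acsm3* counts in control and 15, 19.5 and 16.1 in HOXA13. The part of misassigned reads in the *Acsm3* value was not tested.

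To show the sequence in front of *Acsm3* and, for comparison, *Acsl4*, the 250 bases before the GENCODE vM1 start are printed from mm9 in the direction of transcription. The windows are chr7:126904187-126904436 (plus strand) and chrX:138825079-138825328 (minus strand). Capitals mark CCAAT in the first and the GC box GGGCGG, read here on the other strand, in the second.
Acsm3: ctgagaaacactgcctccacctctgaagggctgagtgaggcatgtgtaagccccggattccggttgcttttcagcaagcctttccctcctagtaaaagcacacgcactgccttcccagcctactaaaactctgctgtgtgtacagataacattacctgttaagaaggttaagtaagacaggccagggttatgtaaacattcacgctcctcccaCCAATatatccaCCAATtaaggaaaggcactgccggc
Acsl4: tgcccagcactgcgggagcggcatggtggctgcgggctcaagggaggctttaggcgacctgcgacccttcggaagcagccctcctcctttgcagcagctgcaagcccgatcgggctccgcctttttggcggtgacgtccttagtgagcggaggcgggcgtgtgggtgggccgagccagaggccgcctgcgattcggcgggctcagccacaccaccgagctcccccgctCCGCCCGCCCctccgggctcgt

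The *Acsm3* window had 49.2% G and C, 5 CpG and an observed over expected CpG ratio of 0.34, near the median of 0.37 over the RefSeq windows of this length (GRCm38.p6). The *Acsl4* window had 70.8% G and C, 25 CpG and a ratio of 0.8. CCAAT was found in 2 places in the *Acsm3* window, and 33.8% of 32817 RefSeq windows held at least 1 match on either strand. GGGCGG had 2 matches in the *Acsl4* window that overlap each other, against 32.7% of windows with a match. A posterior HOX core (TTTATNG, in 9.8% of windows, either strand) and the nuclear receptor motif AGGTCA (in 14% of windows) were in neither window, which says only that these letters are not there. For *Slc27a2* the annotations place the start differently, so no window is printed. The 250 bases before its GENCODE start held none of these motifs (37.2% G and C), while the 250 bases before its RefSeq start, which lie within the GENCODE exon, held 1 AGGTCA and 2 GGGCGG (64.0% G and C).

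Of the 3 long-chain synthetases 1 fell (13.3% of all genes were called lower), and *Acsl3* and *Acsl4* were the most abundant members in control libraries. *Acsl4*, the synthetase that prefers arachidonate and is required for ferroptosis (chrX:138752536-138825078), was 113.7, 69.5 and 109.4 CPM in control and 49.5, 50.3 and 46.3 CPM in HOXA13. The groups did not overlap, and the control libraries were much more spread than the HOXA13 libraries (97.5 ± 24.4 against 48.7 ± 2.1 CPM). The log2 fold change was -1.0 ± 0.17 (edgeR, adjusted p = 0.00402), and it stayed past the threshold in all 15 alternatives (-1.20 to -0.88). Its share of the summed RPKM of the 3 synthetases was 33.9, 31.8 and 37.5% in control and 20.7, 22.4 and 22.3% in HOXA13.

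*Acsl3* (chr1:78654400-78703562), an enzyme of the endoplasmic reticulum and of nascent lipid droplets, was 133.9, 84.1 and 107.6 CPM in control and 109.7, 100.1 and 91.9 CPM in HOXA13. All HOXA13 libraries lay within the range of the control libraries, and the log2 fold change of -0.11 ± 0.16 was not called (adjusted p = 0.637 by edgeR). Chromosome 1 as a whole was shifted: the median log2 fold change of its 780 tested genes was 0.38, and with each chromosome centred *Acsl3* was at -0.51 (adjusted p = 0.0675), whereas without control replicate 1 it was at 0.07. *Acsl3* shares 206 exon bases (5.72%) with *Utp14b* on the same strand, a gene that went from 28.1 ± 1.19 to 56.6 ± 4.63 CPM (log2 fold change 1.01 ± 0.09, adjusted p = 0.000153 by edgeR). *Acsl1* (chr8:47556395-47621405), the main synthetase of heart, fat and liver, was 36.9, 39.8 and 37.0 CPM in control and 43.4, 42.5 and 41.3 CPM in HOXA13. Its groups did not overlap, but the log2 fold change of 0.16 ± 0.07 did not pass the test (adjusted p = 0.133 by edgeR).

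In the control libraries *Acsl3*, *Acsl4* and *Slc27a2* were each highest in control 1 and lowest in control 2. The summed mesendoderm markers had the same order (439.0 and 40.6 CPM), and so had the total counts. The summed ES cell and feeder markers had the reverse order, and these differences cannot be told apart. The part of any of them in the *Acsl4* difference was not tested. *Acsl4* was 69.5 CPM in control 2 and 50.3 CPM in the highest HOXA13 library.

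Per length, *Acsl3* was first in both groups (30.1 ± 6.92 and 27.9 ± 2.47 RPKM). *Acsl4* was second in control (18 ± 4.51 RPKM), apart from *Slc27a2* after it, and in HOXA13 (9.01 ± 0.388 RPKM) its libraries overlapped those of *Slc27a1*. *Acsl1* was at 4.01 ± 0.177 RPKM in control, overlapping *Slc27a3*, and at 4.49 ± 0.111 RPKM in HOXA13, below all *Slc27a3* libraries. These ranks depend on the merged exon length, 9449 bases for *Acsl1* and 3601 for *Acsl3*. In CPM, *Acsl1* was above *Slc27a3* in control (37.9 against 11.6) and in HOXA13 (42.4 against 15.7). The annotation used for counting was not given in the sources used here.

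**Figure D3:**
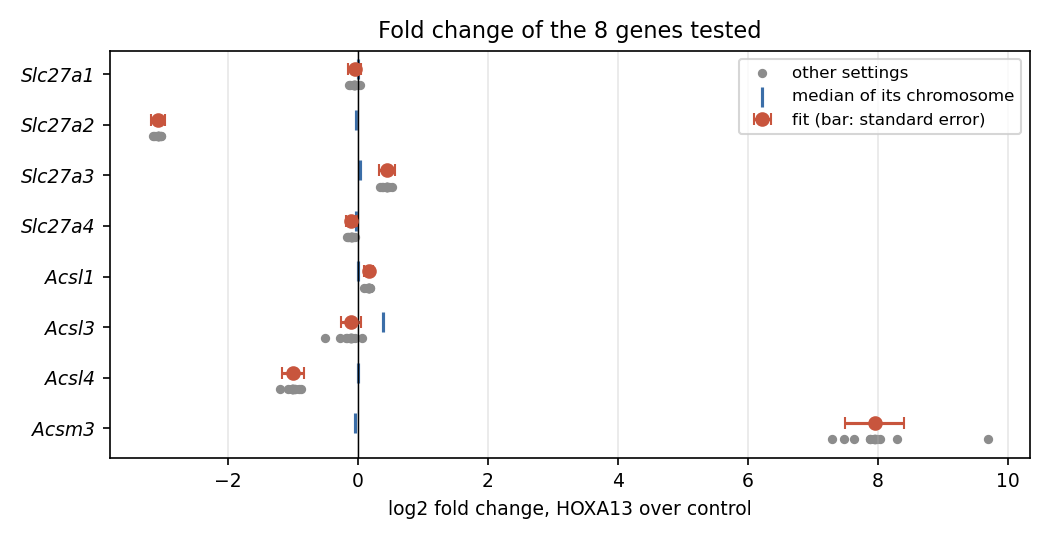
Log2 fold change, HOXA13 over control, of the 8 genes tested. Red points are the edgeR fit with its standard error, grey points are the same value under each alternative setting and blue ticks are the median of all tested genes on that chromosome. *Slc27a2* (-3.08) and *Acsl4* (-1.0) keep their sign in each setting and *Acsm3* (7.95) in the 14 alternatives that keep it, and *Acsl3* and *Slc27a1* cross 0. *Slc27a2* and *Acsm3* were chosen on this contrast.

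Counted together, 2 of the 8 tested members were called higher and 2 lower. Over all genes 14.4% were called higher, 13.3% lower and 27.7% in either direction, and nothing is read from the members' count because *Slc27a2* and *Acsm3* were selected on this contrast. Among the 6 tested genes that came in as relatives, 2 were called. The libraries of the groups did not overlap for 5 of the 8 members, against 45.7% of all genes. The median log2 fold change of the 8 was -0.08, with 0.0 over all genes.

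The wider pathway was described with 7 lists that together held 162 distinct tested genes, of which 35 were higher and 21 lower in HOXA13 (34.6%, against 27.7% of all genes). Among 12 other acyl-CoA synthetases none was higher and 2 were lower (16.7% called, against 27.7% of all genes), with a median log2 fold change of -0.15. *Acss1*, the mitochondrial acetyl-CoA synthetase, fell from 4.86 ± 1.43 to 1.43 ± 0.216 CPM (log2 fold change -1.76 ± 0.28, adjusted p = 0.00274 by edgeR). *Aacs*, which activates acetoacetate, fell from 49.4 ± 2.51 to 42.2 ± 1.21 CPM (adjusted p = 0.0497 by edgeR). The other long-chain synthetases *Acsl5* (55.2 ± 9.36 against 57.1 ± 3.01 CPM, adjusted p = 0.808) and *Acsl6* (3.53 ± 2.83 against 1.38 ± 0.378 CPM, adjusted p = 0.0999) did not pass the edgeR test, and *Acsl6* was highest in control 1 at 6.69 CPM.

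Of 25 tested genes for fatty acid uptake, binding and acyl-CoA thioesterases, 6 were higher and 3 lower (36% called, against 27.7% of all genes, median -0.003). Of the 6, *Dbi*, *Acbd3* and *Acbd6* lie on chromosome 1 with its median of 0.38, and with each chromosome centred 3 genes of the list were higher. *Fabp5*, a cytosolic fatty acid binding protein, was 15.8, 9.31 and 12.4 CPM in control and 32.2, 34.5 and 36.3 CPM in HOXA13, so that the lowest HOXA13 library was above all control libraries. Its log2 fold change was 1.45 ± 0.17 (edgeR, adjusted p = 0.000761). The thioesterases *Acot2* (mitochondrial, 4.71 to 8.01 CPM) and *Acot1* (cytosolic, 5.66 to 2.76 CPM) changed in opposite directions, but they are adjacent near-identical copies between which reads may be split with error. *Acot7*, the major brain thioesterase, fell from 97.9 ± 2.44 to 71.4 ± 5.99 CPM (adjusted p = 0.00387 by edgeR).

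The carnitine shuttle and mitochondrial beta-oxidation list had 27 tested genes, of which 9 were higher (33.3%, against 14.4% of all genes) and none lower (against 13.3% of all genes), with a median log2 fold change of 0.14. *Slc25a20*, the carnitine-acylcarnitine carrier of the inner mitochondrial membrane, was 21.4, 20.5 and 24.5 CPM in control and 68.1, 70.5 and 66.1 CPM in HOXA13. All HOXA13 libraries were far above the control libraries (log2 fold change 1.62 ± 0.09, adjusted p = 1.92e-05 by edgeR). *Etfb*, the beta subunit of the electron transfer flavoprotein that takes electrons from acyl-CoA dehydrogenases, rose from 65.9 ± 3.27 to 114.0 ± 3.02 CPM (adjusted p = 0.000148 by edgeR). The carnitine palmitoyltransferases were not called: *Cpt1a* was 55.7 CPM in control and 63.8 CPM in HOXA13 (adjusted p = 0.427), and *Cpt2* was 23.6 and 23.1 CPM (adjusted p = 0.849 by edgeR).

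Among 22 tested genes of peroxisomal fatty acid metabolism, the compartment in which *Slc27a2* acts in part, 7 were higher and 1 was lower (36.4% called, against 27.7% of all genes, median 0.12). *Ehhadh*, the bifunctional enzyme of peroxisomal beta-oxidation, rose from 3.76 ± 1.04 to 8.3 ± 0.976 CPM (log2 fold change 1.13 ± 0.22, adjusted p = 0.00681 by edgeR). *Hacl1*, the lyase of alpha-oxidation, rose from 4.82 ± 1.23 to 7.57 ± 0.675 CPM (adjusted p = 0.0457 by edgeR), and the median of its chromosome 14 was 0.27 on the log2 scale. The 1 gene that fell was *Crot*, the peroxisomal carnitine octanoyltransferase (50.7 ± 6.37 to 38.1 ± 1.98 CPM, adjusted p = 0.0205 by edgeR).

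**Figure D4:**
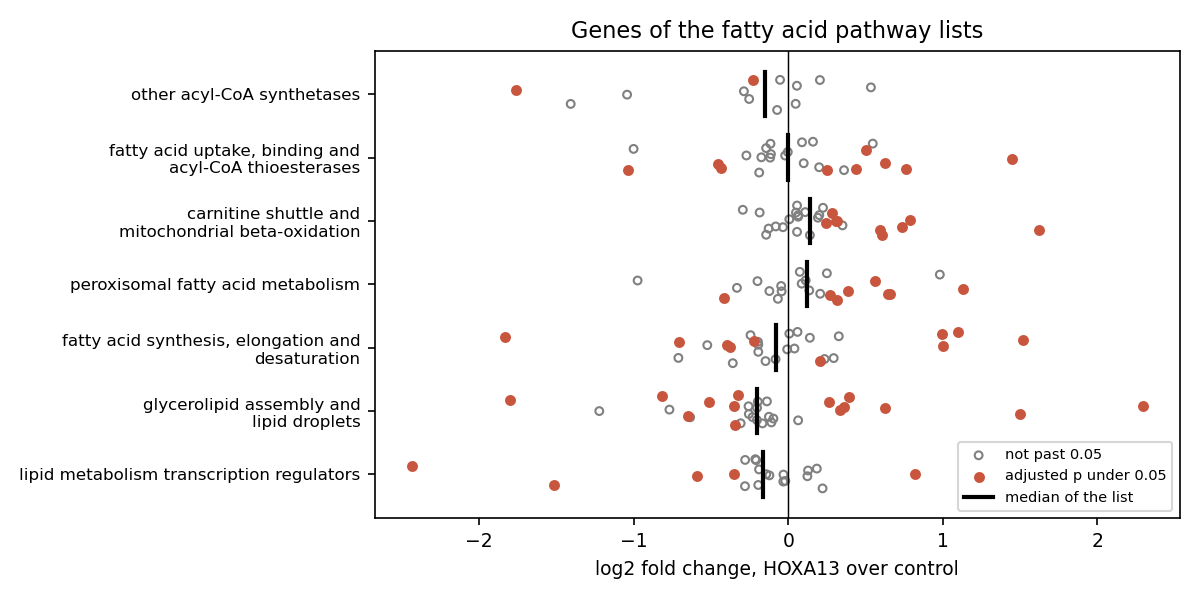
Log2 fold change, HOXA13 over control, of every tested gene in 7 lists of fatty acid metabolism. Filled points have an adjusted p under 0.05, open points do not, and black bars are the medians of the lists, which run from -0.202 (glycerolipid assembly) to 0.14 (mitochondrial beta-oxidation). Filled points of the mitochondrial list all lie to the right of 0, whereas the synthesis and glycerolipid lists have them on both sides.

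Of 27 tested genes for fatty acid synthesis, elongation and desaturation 5 were higher and 5 lower (37% called in all, against 27.7% of all genes). *Acacb*, the acetyl-CoA carboxylase of the mitochondrial surface, rose from 18.9 ± 2.29 to 40.4 ± 1.74 CPM (adjusted p = 0.000274 by edgeR), and *Oxsm*, a synthase of mitochondrial fatty acid synthesis on chromosome 14, rose from 7.02 ± 2.4 to 13.9 ± 0.307 CPM (adjusted p = 0.0121 by edgeR). *Elovl4*, an elongase for very long chains, fell from 14.3 ± 5.33 to 4.03 ± 0.283 CPM (log2 fold change -1.83 ± 0.26, adjusted p = 0.00182), and *Scd2*, a stearoyl-CoA desaturase, fell from 634.0 ± 92.5 to 389.0 ± 20.4 CPM (adjusted p = 0.0022 by edgeR).

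In the glycerolipid and lipid droplet list 7 of 30 tested genes were higher and 7 lower (46.7% called, against 27.7% of all genes). *Agpat9*, a glycerol-3-phosphate acyltransferase, rose from 3.47 ± 1.24 to 17.4 ± 0.514 CPM (log2 fold change 2.30 ± 0.23, adjusted p = 0.000364), and *Lipe*, hormone-sensitive lipase, rose from 6.26 ± 0.938 to 9.59 ± 1.66 CPM (adjusted p = 0.035 by edgeR). The lysophospholipid acyltransferases *Mboat1* (8.06 ± 1.17 to 2.34 ± 0.371 CPM, adjusted p = 0.000508) and *Lpcat4* (29.2 ± 7.59 to 16.7 ± 1.23 CPM, adjusted p = 0.0141 by edgeR) fell.

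Of 20 tested transcription regulators of lipid metabolism 1 was higher and 4 were lower (25% called, against 27.7% of all genes). *Ppargc1b*, a coactivator of oxidative metabolism, fell from 3.18 ± 1.05 to 0.577 ± 0.17 CPM (log2 fold change -2.44 ± 0.35, adjusted p = 0.00181), and *Rxrg*, a retinoid X receptor, fell from 1.8 ± 0.622 to 0.618 ± 0.346 CPM (adjusted p = 0.0337 by edgeR). Of the peroxisome proliferator-activated receptors, *Ppard* was 32.5 CPM in control and 37.8 CPM in HOXA13 (adjusted p = 0.0835 by edgeR), *Pparg* was below 1 CPM in both groups and *Ppara* had too few counts to be tested.

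Of the nearest neighbours of *Slc27a2* none was called, and of those of *Acsm3* 1 was called. Upstream of *Slc27a2*, *Atp8b4* (log2 fold change 0.30 ± 0.33) and *Dtwd1* (-0.02 ± 0.09) were not called, and downstream *Gabpb1* (0.04 ± 0.07) was not called and *Hdc* was not tested. Of 17 tested genes among the 10 on each side, 1 was higher and 2 were lower (27.7% of all genes were called in either direction), with a range of -1.31 for *Shc4* to 0.64 for *Blvra*. Around *Acsm3*, *Thumpd1* (0.01 ± 0.07) and *Dcun1d3* (0.03 ± 0.10) were not called, and *2610020H08Rik*, which starts 33.1 kb downstream of the *Acsm3* start, rose from 5.36 ± 0.438 to 8.1 ± 0.793 CPM (log2 fold change 0.59 ± 0.15, adjusted p = 0.0197 by edgeR). It was the only one of 8 tested neighbours of *Acsm3* that was called. Around *Acsl4*, 2 of 11 tested genes were lower and none higher: *Tmem164* at -0.74 and *Irs4* at -2.72 on the log2 scale (adjusted p = 0.00476 and 0.0021 by edgeR).

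**Figure D5:**
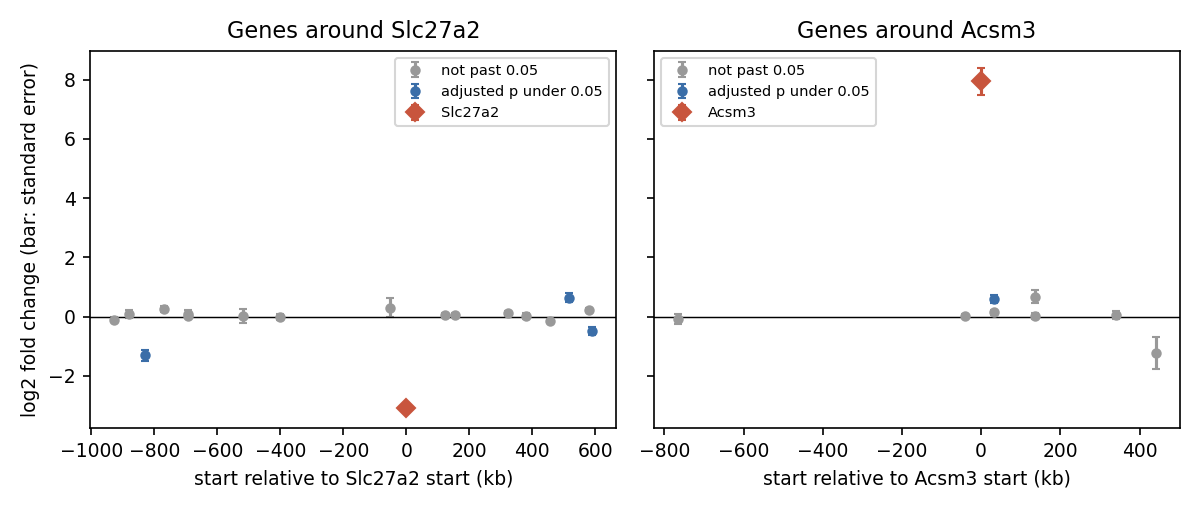
Log2 fold change, HOXA13 over control, of the tested genes around *Slc27a2* (left) and *Acsm3* (right). The x axis is the distance between gene starts in kb, bars are standard errors, the red diamond is the named gene and blue points have an adjusted p under 0.05. Neighbours lie between -1.31 and 0.67, away from -3.08 for *Slc27a2* and 7.95 for *Acsm3*.

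The genes most like the chosen pair across libraries were ranked by Pearson's r of log2 CPM over the 6 libraries, given as a description because the groups themselves set most of the variation. For *Slc27a2* they were *Wdr86* (r = 0.9993, 8.02 to 0.912 CPM), *Odc1* (r = 0.9988, 345.1 to 244.2 CPM) and *Hsd17b12* (r = 0.9986, 142.8 to 109.9 CPM), and 64 genes had an r over 0.99. For *Acsm3* they were *F11r* (r = 0.9998, 61.8 to 211.2 CPM), *Marcksl1* (r = 0.9995, 287.5 to 412.5 CPM) and *Plekhh1* (r = 0.9993, 28.6 to 102.8 CPM), and 125 genes had an r over 0.99. *Hsd17b12*, an elongation enzyme, is also in the synthesis list. Its change was much smaller than that of *Slc27a2* (log2 fold change -0.38 against -3.08).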

How the data were processed

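The authors sequenced 75 base-pair reads, mapped them to mm9 and deposited counts per gene, whole numbers without normalization, in 1 table per library. The submitters' processing notes name bcl2fastq 2.17, TopHat2 2.0.14 and HTSeq 0.6.1p1; annotation, strand setting and counting mode were not given in the sources used here. Reads carry no molecular identifiers.

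Counts were tested with edgeR 4.0.16 (R 4.3.3): filterByExpr (minimum count 10, minimum total 15), TMM factors, glmQLFit and glmQLFTest without covariates, all 6 libraries, Benjamini-Hochberg adjustment over 13846 genes, threshold 0.05. Standard errors were derived from each log2 fold change and its F statistic. The fit was also run on simulated data, and no result given here rests on that run. CPM is after TMM scaling. RPKM was computed with merged exon lengths of GENCODE vM1. Symbols placed on that annotation were 20824 directly and 1404 through an older symbol, and 2165 were not placed. Promoter sequences are from RefSeq (GRCm38.p6), with entries for 8 of the 10 members, and from mm9.

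Members and lists were chosen with earlier results of these data known. Named pathway genes are up to 2 rises and 2 falls per list, largest by log2 fold change, with an adjusted p under 0.05, no overlap between groups and a mean log2 CPM of at least 0. A gene that this rule names is not reported here. *Dbi*, *Acbd3*, *Acbd6*, *Acsl5*, *Acsl6*, *Cpt1a*, *Cpt2* and the peroxisome proliferator-activated receptors are outside this rule and were chosen after their values were seen, as were the genes at the ends of the neighbour range and those around *Acsl4*. For likeness, genes needed a mean log2 CPM of at least 1. Alternatives were RLE factors, library size alone, no filter, a minimum of 10 counts per library, a replicate block, robust estimation, DESeq2 1.42.0, limma-voom (limma 3.58.1), each chromosome centred and each library left out.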

Additional observations from a re-analysis of the deposited data

How the results depend on the processing

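*Acsl4*, *Slc27a1*, *Slc27a4*, *Acsl1* and *Acsl3* kept their side of the threshold in all 15 alternatives. The log2 fold change was -3.15 to -3.03 for *Slc27a2* over the same 15 and 7.30 to 9.69 for *Acsm3* over 14, since a minimum of 10 counts in every library removes it; both genes were chosen on this contrast and no call is read from them. *Slc27a3* lost its call in 5, with log2 fold changes of 0.34 to 0.48. Of 285 recomputed counts, 201 stayed within 1.5 times and 84 did not; the cause was not tested. With library size alone 1 member was higher, and the lists gave 1 lower (mitochondrial beta-oxidation), 3 higher and 2 lower (peroxisomal), 8 lower (synthesis), 4 higher and 11 lower (glycerolipid) and 0 higher (regulators). Without a filter 1 other acyl-CoA synthetase was lower. With at least 10 counts per library 1 member was higher, 3 synthesis genes were higher and 2 regulators lower. The replicate numbers did not pair the libraries (correlations of same-numbered deviations -0.0154, -0.0454 and 0.0182); with the replicate block 1 other synthetase was lower, 4 peroxisomal genes higher, 3 synthesis genes lower, 4 glycerolipid genes higher and 0 regulators higher. With each chromosome centred 1 other synthetase was higher and 1 lower, 3 uptake and binding genes were higher and 2 regulators higher.

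Leaving out 1 library gave 1 to 2 members higher; other synthetases 0 to 2 higher and 1 to 4 lower; uptake and binding 3 to 7 higher and 1 to 4 lower; mitochondrial 5 to 10 higher and 0 to 1 lower; peroxisomal 2 to 7 higher and 0 to 2 lower; synthesis 3 to 6 higher and 3 to 8 lower; glycerolipid 2 to 7 higher and 3 to 11 lower; regulators 0 to 2 higher and 1 to 4 lower; and, over all genes, 1134 to 2428 higher, 904 to 2579 lower and 2038 to 5007 in all. The lowest totals over all genes came without HOXA13 replicate 1 (2038), 2 (2104) or 3 (2311). Depth limits *Slc27a5*, *Slc27a6* and control *Acsm3*, which are at or near the floor of 3 counts.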

Other observations

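Further genes of the lists, chosen after their values were seen, extend the account of fatty acid use. *Etfa*, the alpha subunit of the electron transfer flavoprotein, was 64.7 CPM in control and 107.7 CPM in HOXA13 (log2 fold change 0.73, adjusted p = 0.000163), close to *Etfb* in size. The acyl-CoA dehydrogenases *Acadl* (50.2 to 75.8 CPM, adjusted p = 0.000785) and *Acadm* (65.2 to 81.2 CPM, adjusted p = 0.00689) were also higher by edgeR, *Acadl* by 0.59 on the log2 scale on chromosome 1, whose median was 0.38. Not called were 18 of the 27 tested genes of the mitochondrial list. Among them were *Etfdh* (30.1 and 32.5 CPM, adjusted p = 0.349), *Acadvl* (48.5 and 50.8 CPM, adjusted p = 0.637) and *Hadha* (141.9 and 148.3 CPM, adjusted p = 0.436 by edgeR). *Elovl6*, which elongates palmitate, was 145.2 CPM in control and 288.9 CPM in HOXA13 (log2 fold change 0.99), whereas *Elovl4* fell. The lipid droplet coat gene *Plin2* was 69.0 and 90.8 CPM (adjusted p = 0.00306 by edgeR). *Fasn*, fatty acid synthase, was 1114.5 CPM in control and 775.0 CPM in HOXA13 and did not pass the test (adjusted p = 0.055 by edgeR).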
